A study of Mus musculus with 12 samples.

Results

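The respiratory chain subunits encoded in the nucleus were examined in hearts of mice with *Gata4* or *Gata6* deleted. Members were taken by symbol from probesets that the platform table gave a single symbol, namely those starting with Ndufa, Ndufb, Ndufc, Ndufs, Ndufv, Uqcr, Cox4i, Cox5, Cox6, Cox7, Cox8 or Atp5, together with *Sdha*, *Sdhb*, *Sdhc*, *Sdhd* and *Cyc1*, and without the assembly factors named Ndufaf. Each gene was read by the probeset (a set of short probes combined into 1 value) with the highest mean over the 12 hearts. This gave 83 of the 19938 genes on the array, with 36 members in complex I, 4 in complex II, 9 in complex III, 17 in complex IV and 17 in ATP synthase. All 83 were tested, and none was lost to a filter.

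Total RNA of whole hearts was hybridized to 1 Affymetrix mouse gene ST array per mouse, and each mouse was labelled as 8 weeks old. There were 3 *Gata4*-deleted hearts (floxed *Gata4* with the cre transgene), 2 *Gata4* floxed hearts without cre, 3 *Gata6*-deleted hearts (floxed *Gata6* with cre), 2 *Gata6* floxed hearts without cre, and 2 cre hearts with wild-type *Gata4* and *Gata6*. The labels place cre under the MHCalpha transgene and the paper's methods under the βMHC promoter, so that deletion was aimed at cardiomyocytes in either case, while the other cells of the heart kept both genes. The labels call the hearts of a group biological replicates. The strain of each line and any shared litters are not given in the sources used here, so p-values measure the spread between these hearts. In whole hearts, fewer cardiomyocytes and less RNA per cardiomyocyte cannot be told apart.

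The respiratory chain passes electrons along the inner mitochondrial membrane to oxygen, and ATP synthase uses the resulting proton gradient to make ATP. Complex I takes electrons from NADH and complex II from succinate, complex III passes them to cytochrome c, and complex IV reduces oxygen. The beating heart draws nearly all of its ATP from this pathway, and its cardiomyocytes are packed with mitochondria. Most subunits are encoded in the nucleus, and a few core ones in mitochondrial DNA, so both genomes supply the same complexes.

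Values were log2 signals, on which a difference of 1 is a doubling, and array medians lay between 5.61 and 5.66. The 8 cardiomyocyte markers read 11.8 to 13.7 in every heart. The 3 brown fat markers averaged 5.14 to 5.62 per heart, with *Ucp1* among them at 4.36 to 4.70. The 6 skeletal muscle markers averaged 6.09 to 6.34, with *Myh4* among them at 4.08 to 4.55. The *Gata4* probeset averaged 9.19 in *Gata4*-deleted and 9.24 in *Gata4* floxed hearts, and the *Gata6* probeset 9.12 in *Gata6*-deleted and 8.89 in *Gata6* floxed hearts. Both cover the whole transcript and do not measure the deleted exon by itself. A change was called at a limma adjusted p under 0.05 (Benjamini-Hochberg over all 35557 probesets), and SE is the standard error of the fitted log2 difference.

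With *Gata4* deletion no respiratory chain subunit passed. Deleted hearts carry cre and their floxed controls do not, so each change given for a deletion also holds any effect of cre. The log2 changes ran from -0.21 to 0.15 over the 83 members, and 54 lay below 0 and 29 above. Their median was -0.02 (-0.0394 to -0.0052 over left-out hearts), against 0.0030 over all probesets, of which 49.2% lay below 0. Over probesets above the median signal it was -0.0082, and 9336 of those 17778 lay below 0. None of the 83 reached an unadjusted p under 0.05 by limma, where 9.42% of all probesets did, and 0.183% of all probesets passed after adjustment. The methods' t-test put 6 members under 0.05 before adjustment, a level that 8.07% of all probesets reached by that test, and none after it.

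The changes of the members were also small in size. Their median absolute log2 change was 0.047 in *Gata4*-deleted against *Gata4* floxed hearts, where it was 0.105 over all probesets and 0.0939 over probesets above the median signal. The 95% interval of the change stayed within a 1.25-fold change in either direction for 75 of 83 members, as it did for 32.6% of all probesets, and within 1.5-fold for 82 of 83, as it did for 75.7%. Of probesets above the median signal these shares were 44.1% and 84.1%. The member outside 1.5-fold was *Ndufs5*, whose interval ran from -0.91 to 0.50. All 3 *Gata4*-deleted hearts lay below both *Gata4* floxed hearts at 14 members (13.0% of all probesets did so) and above them at 7 (12.7% of all probesets).

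**Figure D1:**
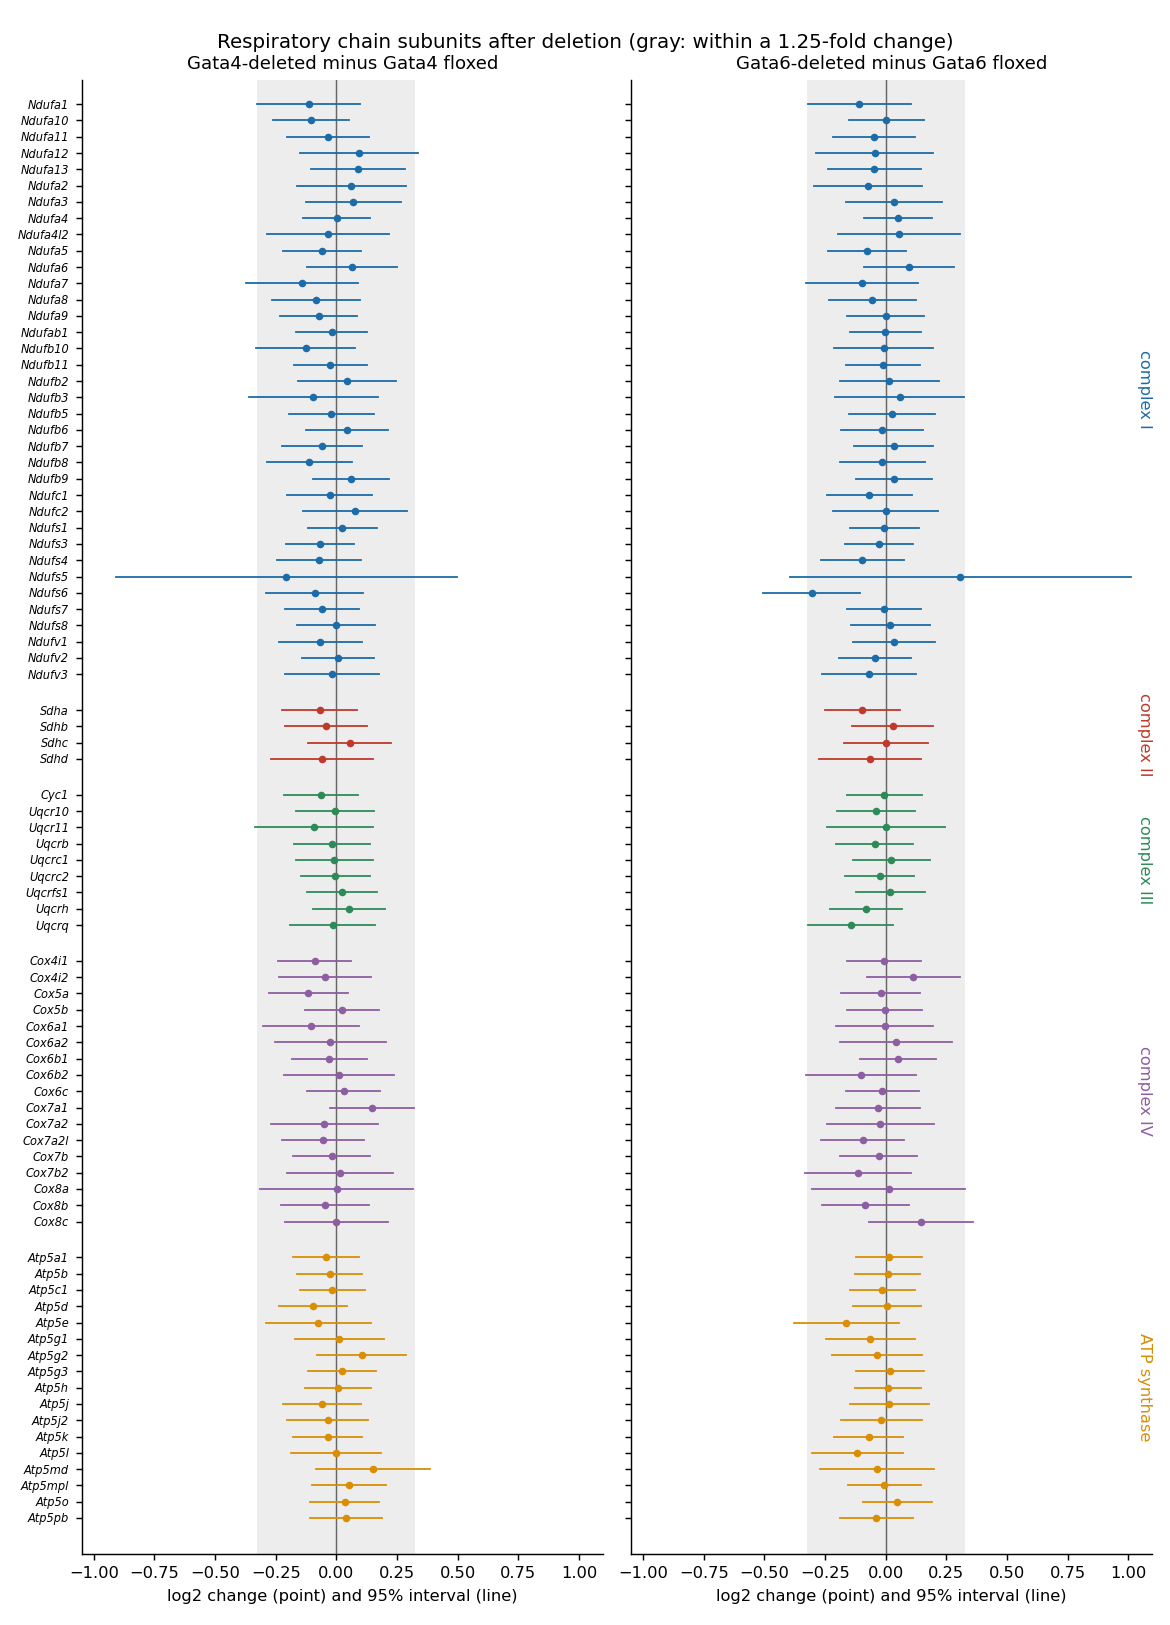
Log2 change of each of the 83 members (points) with its 95% interval (lines) in *Gata4*-deleted minus *Gata4* floxed hearts (left) and *Gata6*-deleted minus *Gata6* floxed hearts (right), by complex. Nearly all points lie close to 0 and within the gray band of a 1.25-fold change, *Ndufs5* has the widest interval in both panels, and *Ndufs6* is lowest on the right at -0.30.

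In complex I, the NADH dehydrogenase, 24 of 36 members were below 0 with *Gata4* deletion and the median log2 change was -0.03, or -0.0428 to 0.0004 over left-out hearts. The 6 measured genes of its catalytic core, which carries the flavin and the iron-sulfur clusters, lay between -0.07 (*Ndufv1*) and 0.02 (*Ndufs1*). *Ndufa12*, an accessory subunit next to the electron entry arm, had the highest change of the complex at 0.09 (SE 0.11). It read 8.65, 8.37 and 8.35 in *Gata4*-deleted hearts, against 8.29 and 8.43 in *Gata4* floxed hearts. These groups overlapped, and without *Gata4*-deleted heart 1 the change was -0.0063. *Ndufs5* had the lowest change at -0.21 (SE 0.31), which ran from -0.42 to -0.04 over left-out hearts and was -1.10 (adjusted p = 0.224) with cre hearts as the control.

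In complex II, the succinate dehydrogenase of both the citric acid cycle and the chain, *Sdha* was lowest (-0.07, SE 0.07) and *Sdhc* highest (0.05, SE 0.08). *Sdha*, the flavoprotein that oxidizes succinate, read 11.81, 11.84 and 11.78 in *Gata4*-deleted hearts, against 11.90 and 11.85 in *Gata4* floxed hearts. The groups did not overlap, by less than 0.01 between the nearest hearts. In complex III, which contains the cytochromes b and c1, the median change was -0.0083 (-0.0351 to 0.0194 over left-out hearts), with *Uqcr11*, a small subunit, lowest at -0.09 (SE 0.11) and *Uqcrh*, the hinge protein near cytochrome c1, highest at 0.05 (SE 0.07).

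In ATP synthase the median change with *Gata4* deletion was -0.0012, and 8 members were above 0 and 9 below. *Atp5d*, the delta subunit of the rotor stalk, read 11.73, 11.77 and 11.77 in *Gata4*-deleted hearts, against 11.88 and 11.83 in *Gata4* floxed hearts (-0.09, SE 0.06, adjusted p = 0.723). *Atp5md*, a small membrane subunit at the face where synthase dimers meet, read 12.06, 12.04 and 11.97 in *Gata4*-deleted hearts, against 11.91 and 11.84 in *Gata4* floxed hearts (0.15, SE 0.10, adjusted p = 0.739). Neither pair of groups overlapped, with *Atp5d* lower and *Atp5md* higher in every *Gata4*-deleted heart. At *Atp5md* the other hearts spread widely, with 12.05, 12.08 and 12.12 in *Gata6*-deleted, 11.99 and 12.26 in *Gata6* floxed and 11.84 and 12.12 in cre hearts.

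Complex IV, the cytochrome c oxidase, had a median change of -0.02 with *Gata4* deletion, and 11 of 17 members lay below 0. Several of its subunits exist as a muscle and a ubiquitous isoform from separate genes, and the adult heart is known for using the muscle ones. *Cox7a1*, a muscle isoform, had the smallest p of all 83 members, and *Cox5a*, a subunit without tissue isoforms, was lowest. *Cox7a1* read 11.908, 11.996 and 12.005 in *Gata4*-deleted hearts, against 11.827 and 11.818 in *Gata4* floxed hearts. Every *Gata4*-deleted heart lay above both floxed hearts, and the fitted log2 change was 0.15 (SE 0.08, 95% interval -0.03 to 0.32, adjusted p = 0.619 by limma). The *Gata6*-deleted (11.99, 12.04 and 11.85), *Gata6* floxed (11.97 and 12.01) and cre hearts (11.96 and 12.04) all read above the *Gata4* floxed hearts, and against cre hearts the *Gata4*-deleted hearts were at -0.0334. *Cox5a* read 10.11, 10.09 and 9.998 in *Gata4*-deleted hearts, against 10.21 and 10.16 in *Gata4* floxed hearts (-0.12, SE 0.07, adjusted p = 0.699), with no overlap.

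The other isoforms lay close to 0 with either deletion. Of the muscle isoforms, *Cox6a2* read 11.26, 11.35 and 11.29 in *Gata4*-deleted hearts, against 11.36 and 11.29 in *Gata4* floxed hearts, and *Cox8b* read 11.61, 11.73 and 11.67, against 11.79 and 11.64. Both overlapped, at -0.02 (SE 0.10) and -0.05 (SE 0.08). Their ubiquitous counterparts were at -0.10 (*Cox6a1*, SE 0.09), -0.05 (*Cox7a2*, SE 0.10) and 0.0013 (*Cox8a*, SE 0.14), and of these only *Cox6a1* did not overlap. With *Gata6* deletion the 3 muscle isoforms lay between -0.08 (*Cox8b*) and 0.04 (*Cox6a2*) and the 3 ubiquitous ones between -0.02 (*Cox7a2*) and 0.01 (*Cox8a*), and none passed.

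**Figure D2:**
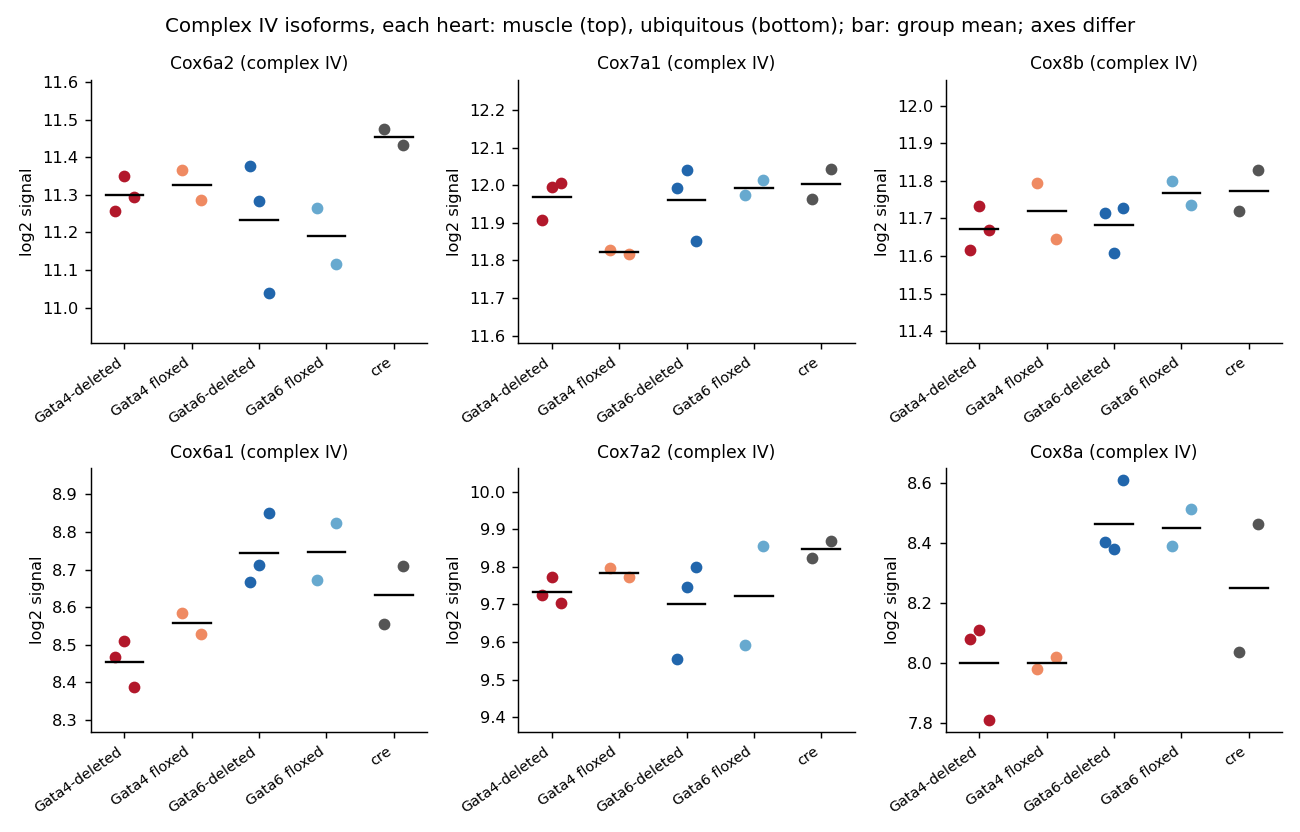
Log2 signal of each heart (points) and group means (bars) for the muscle isoforms *Cox6a2*, *Cox7a1* and *Cox8b* (top) and the ubiquitous isoforms *Cox6a1*, *Cox7a2* and *Cox8a* (bottom) of complex IV. *Cox7a1* is lowest in both *Gata4* floxed hearts, and *Cox6a1* and *Cox8a* are lower in all hearts of the *Gata4* line than in those of the *Gata6* line.

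Promoters of members were searched for motifs because GATA-4 and GATA-6 bind DNA. RefSeq windows of the GRCm38.p6 build, 250 bases before to 50 after a start, matched 67 of the 83 members. On either strand, a GATA motif (AGATAA or TGATAA) was found for 12 of the 67 members (17.9%, against 21.0% of all 27025 genes with a window). The core motif of NRF1, a factor known to drive many respiratory chain genes, spelled GCATGCGC, was found for 10 (14.9%, against 3.05% of all genes). The core motif of the estrogen-related receptors, AAGGTCA, which also are known for regulating mitochondrial genes, was found for 7 (10.4%, against 5.38%). A match shows only that the letters are there. The 250 bases before the start are shown for *Cox7a1*, which had the smallest p with *Gata4* deletion, at chr7:30183921-30184170 (+ strand), with its 3 GATA matches in capitals, and for *Cox6a1* at chr5:115348959-115349208 (- strand), where capitals mark 2 overlapping NRF1 matches, 1 on each strand.
Cox7a1: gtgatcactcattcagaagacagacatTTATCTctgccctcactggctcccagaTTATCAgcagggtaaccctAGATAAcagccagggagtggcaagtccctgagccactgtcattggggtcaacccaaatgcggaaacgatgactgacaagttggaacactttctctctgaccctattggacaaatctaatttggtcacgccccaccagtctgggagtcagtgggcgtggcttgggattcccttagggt
Cox6a1: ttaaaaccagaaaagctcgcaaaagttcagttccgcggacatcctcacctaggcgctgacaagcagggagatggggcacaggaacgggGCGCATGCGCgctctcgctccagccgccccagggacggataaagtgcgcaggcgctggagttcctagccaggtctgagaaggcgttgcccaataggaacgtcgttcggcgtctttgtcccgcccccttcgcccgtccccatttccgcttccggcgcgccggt
Of these members *Cox7a1*, with GATA matches, had a log2 change of 0.15 with *Gata4* deletion and -0.03 with *Gata6* deletion, and *Cox6a1*, with none, of -0.10 and -0.0041. Other members with a GATA match lay on both sides of 0 with *Gata4* deletion. *Ndufa12* was at 0.09 and *Ndufc2* at 0.08, and *Ndufa9* at -0.07 and *Ndufs5* at -0.21. Whether a match goes with a change was not tested.

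With *Gata6* deletion no member passed either, and by limma 0% of all probesets did. The log2 changes ran from -0.30 to 0.31, with 53 members below 0 and 30 above (49.5% of all probesets were below 0), and their median was -0.01 (-0.0259 to -0.0010 over left-out hearts), against 0.0016 over all probesets. Over probesets above the median signal the median was 0.0068, and 8402 of those 17778 lay below 0. The median absolute change of the members was 0.034, against 0.0866 over all probesets and 0.0689 over those above the median signal. The 95% interval stayed within 1.25-fold for 74 of 83 members (37.7% of all probesets) and within 1.5-fold for 82 (78.4% of all probesets). Of probesets above the median signal these shares were 52.8% and 88.1%. All 3 *Gata6*-deleted hearts lay below both *Gata6* floxed hearts at 13 members (9.23% of all probesets) and above them at 4 (9.89%). The methods' t-test put 3 members under 0.05 before adjustment, a level that 4.62% of all probesets reached by that test, and none after it. With cre hearts as the control in place of floxed hearts, the median of the members was -0.0544, against -0.0124 over all probesets.

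*Ndufs6*, a zinc-binding accessory subunit of complex I, was the only member with an unadjusted p under 0.05 by limma, a level that 4.91% of all probesets reached. It read 9.80, 9.76 and 9.69 in *Gata6*-deleted hearts, against 10.10 and 10.02 in *Gata6* floxed hearts. The groups did not overlap, and the log2 change was -0.30 (SE 0.09, 95% interval -0.50 to -0.10, adjusted p = 0.827 by limma). Leaving out any heart kept it between -0.35 and -0.26. In the other hearts *Ndufs6* read 9.76, 9.91 and 9.83 (*Gata4*-deleted), 10.04 and 9.80 (*Gata4* floxed) and 9.96 and 9.99 (cre). Only *Gata4*-deleted heart 1 and *Gata4* floxed heart 2 lay within the range of the *Gata6*-deleted hearts.

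By complex, the median log2 changes with *Gata6* deletion were -0.0078 (complex I), -0.03 (complex II), -0.02 (complex III), -0.01 (complex IV) and -0.01 (ATP synthase). The highest change of complex I was that of *Ndufs5* (0.31, SE 0.31), which was 0.99 (adjusted p = 0.28) with cre hearts as the control. In complex II *Sdha* was lowest (-0.10, SE 0.07) and *Sdhb*, the iron-sulfur subunit, highest (0.03, SE 0.08). In complex III *Uqcrq*, a small subunit, was lowest (-0.14, SE 0.08) and *Uqcrc1*, a core subunit, highest (0.02, SE 0.07). *Uqcrq* read 9.98, 9.82 and 9.79 in *Gata6*-deleted hearts, against 10.01 in both *Gata6* floxed hearts, with no overlap. In complex IV *Cox7b2* was lowest (-0.11, SE 0.10) and *Cox8c* highest (0.15, SE 0.09), and both are testis isoforms. Their signals were low, at 3.51 to 3.80 for *Cox7b2* and 5.24 to 5.37 for *Cox8c* in *Gata6*-deleted hearts. In ATP synthase *Atp5e*, the epsilon subunit, was lowest (-0.16, SE 0.10) and *Atp5o*, the subunit that ties the stator to the catalytic head, highest (0.05, SE 0.06).

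The difference between both changes was tested directly. No member passed by limma, none had an unadjusted p under 0.05, and the smallest adjusted p was 0.872, while 0.0169% of all probesets passed and 6.25% had an unadjusted p under 0.05. The median of this difference over the members was 0.0039, with 42 members above 0 and 41 below. It had a wider error than either change, and its 95% interval stayed within 1.25-fold for 50 members (10.1% of all probesets) and within 1.5-fold for 82 (57.1%). Of probesets above the median signal these shares were 16.9% and 70.1%.

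None of the genes listed as building or supplying the chain was called with either deletion. The array measured 46 of 52 listed assembly factors, 24 of 28 regulators of mitochondrial genes, 25 of 27 genes of the citric acid cycle and pyruvate dehydrogenase, 29 of 32 electron carriers and energy transfer genes and all 77 listed mitochondrial ribosome genes. At an unadjusted p under 0.05 with *Gata4* deletion, limma counted 8 of 46 assembly factors, 6 of 24 regulators, 3 of 25 genes of the citric acid cycle list, 4 of 29 carriers and 1 of 77 ribosome genes (9.42% of all probesets). With *Gata6* deletion it counted 2, 0, 1, 0 and 0 (4.91% of all probesets). With *Gata4* deletion the median log2 changes of these lists were -0.04, -0.03, -0.06, -0.05 and -0.05, and with *Gata6* deletion -0.03, 0.0078, -0.01, -0.0058 and -0.02. Of the subunits encoded in mitochondrial DNA 2 of 26 names in the list were matched, and they lay at 0.01 (COX2) and -0.02 (ND3) with *Gata4* deletion.

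At the ends of these lists, *Timmdc1*, an assembly factor of complex I, read 8.31, 8.28 and 8.33 in *Gata4*-deleted hearts, against 8.73 and 8.62 in *Gata4* floxed hearts (-0.37, SE 0.08, adjusted p = 0.154), but 8.23 and 8.32 in cre hearts. The deleted hearts lay below both floxed hearts and overlapped with the cre hearts. *Nubpl*, which delivers iron-sulfur clusters to complex I, had the highest change of the assembly factors (0.53, SE 0.17, adjusted p = 0.326). Among regulators, *Ppara*, a receptor that drives fatty acid oxidation, was highest (0.35, SE 0.12, adjusted p = 0.367) and *Tfam*, which packages and transcribes mitochondrial DNA, lowest (-0.28, SE 0.10, adjusted p = 0.373) with *Gata4* deletion. *Coq10b*, which binds coenzyme Q, was highest of the carriers (0.42, SE 0.12, adjusted p = 0.246) and *Ucp3*, an uncoupling protein, lowest (-0.53, SE 0.31). The citric acid cycle list ran from *Pdp2* (-0.39, SE 0.16), a phosphatase of pyruvate dehydrogenase, to *Mpc1* (0.05, SE 0.07), of the pyruvate carrier, and the ribosome list from *Mrpl47* (-0.27) to *Mrpl3* (0.22).

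With *Gata6* deletion *Idh2*, the mitochondrial NADP-dependent isocitrate dehydrogenase, had the highest change of the citric acid cycle list (0.48, SE 0.08, adjusted p = 0.373) and *Pdp2* the lowest (-0.24). *Idh2* read 11.94, 11.96 and 11.94 in *Gata6*-deleted hearts, against 11.51 and 11.43 in *Gata6* floxed hearts, while the cre hearts read 12.17 and 12.10. The *Gata6* floxed hearts were the lowest of all 12 at this gene. The ends of the other lists were *Timmdc1* (0.20) and *Ndufaf5* (-0.17) of the assembly factors, *Sirt1* (0.14) and *Esrrg* (-0.16) of the regulators, *Ucp3* (0.18) and *Coq2* (-0.13) of the carriers, and *Mrpl22* (0.27) and *Mrpl15* (-0.41) of the ribosome.

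When *Gata4*-deleted hearts were set directly against *Gata6*-deleted hearts, 2 of the 83 members passed, 1 higher and 1 lower, where 1.08% of all probesets passed. Another 7 members had an unadjusted p under 0.05, to make 3 higher and 6 lower (11.7% of all probesets). The methods' t-test put 17 members under 0.05 before adjustment, a level that 10.6% of all probesets reached by that test, and none after it. The passing members were *Sdhc*, the membrane anchor of complex II that holds its heme and quinone site, and *Ndufs5*, an accessory subunit of complex I on the side of the intermembrane space.

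*Sdhc* read 11.56, 11.63 and 11.62 in *Gata4*-deleted hearts, against 11.07, 11.06 and 10.97 in *Gata6*-deleted hearts. It was higher by 0.57 on the log2 scale (SE 0.07, adjusted p = 0.00663 by limma), or 1.48-fold, and the groups lay far apart. In floxed hearts, which carry no cre, it read 11.59 and 11.50 in the *Gata4* line, against 11.12 and 10.94 in the *Gata6* line. That difference was 0.51 (SE 0.08, adjusted p = 0.0521), just short of passing. The cre hearts read 11.55 and 11.56, within the range of the *Gata4* line. Within a line the log2 difference of *Sdhc* was 0.05 with *Gata4* deletion and 0.0020 with *Gata6* deletion (SE 0.08 for each), and neither passed. With cre hearts as the control in place of floxed hearts, *Sdhc* in *Gata6*-deleted hearts was at -0.52 (adjusted p = 0.0177 by limma), the only member called in that setting.

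*Ndufs5* read 8.38, 7.74 and 7.73 in *Gata4*-deleted hearts, against 10.18, 10.004 and 9.91 in *Gata6*-deleted hearts. It was lower by a log2 difference of -2.08 (SE 0.28, adjusted p = 0.00778 by limma), or 4.24-fold. The floxed hearts read 7.99 and 8.32 in the *Gata4* line, against 9.56 and 9.88 in the *Gata6* line (-1.57, SE 0.34, adjusted p = 0.133), so the lines did not overlap with or without cre. The cre hearts stood apart from each other at 8.47 and 9.62, near the *Gata4* and the *Gata6* line. A further probeset is listed by the platform table under *Ndufs5* and a second symbol, and was therefore assigned to no gene. It read 9.38 to 9.43 in *Gata4*-deleted and 9.68 to 9.73 in *Gata6*-deleted hearts. That difference was much smaller, at -0.30 (SE 0.08, adjusted p = 0.158 by limma), and did not pass. Over deleted and floxed hearts together it was at -0.37 (adjusted p = 0.02 by limma). Its cre hearts read 9.59 and 9.74, both above every heart of the *Gata4* line. The 250 bases before the start of *Ndufs5*, the member with the widest difference, lie at chr4:123718187-123718436 (- strand of GRCm38.p6, from RefSeq). Capitals mark an estrogen-related receptor motif and a GATA motif, both read on the opposite strand.
Ndufs5: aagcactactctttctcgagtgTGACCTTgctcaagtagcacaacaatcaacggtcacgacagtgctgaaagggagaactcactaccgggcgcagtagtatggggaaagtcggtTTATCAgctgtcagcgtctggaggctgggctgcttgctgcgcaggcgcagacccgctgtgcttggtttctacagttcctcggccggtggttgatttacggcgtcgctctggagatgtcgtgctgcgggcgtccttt

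The difference between the lines was followed over deleted and floxed hearts together, a comparison added after these values were seen. *Sdhc* averaged 11.58 ± 0.05 in the 5 hearts of the *Gata4* line and 11.03 ± 0.07 in the 5 of the *Gata6* line (SD). *Ndufs5* averaged 8.03 ± 0.31 in the *Gata4* line and 9.91 ± 0.22 in the *Gata6* line. For both, a two-sided exact permutation test of 5 hearts against 5 gave p = 0.00794, the smallest it can give, and since both members were picked for this difference it describes them only. In limma's fit *Sdhc* was at 0.54 (adjusted p = 0.00169) and *Ndufs5* at -1.83 (adjusted p = 0.00486), and 2.07% of all probesets passed. At an unadjusted p under 0.05 there were 13 of 83 members (14.8% of all probesets). The 5 hearts of each line did not overlap at 12 of 83 members, 4 higher and 8 lower in the *Gata4* line. They did not overlap at 4.73% of all probesets and at 1250 of the 17778 probesets above the median signal.

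**Figure D3:**
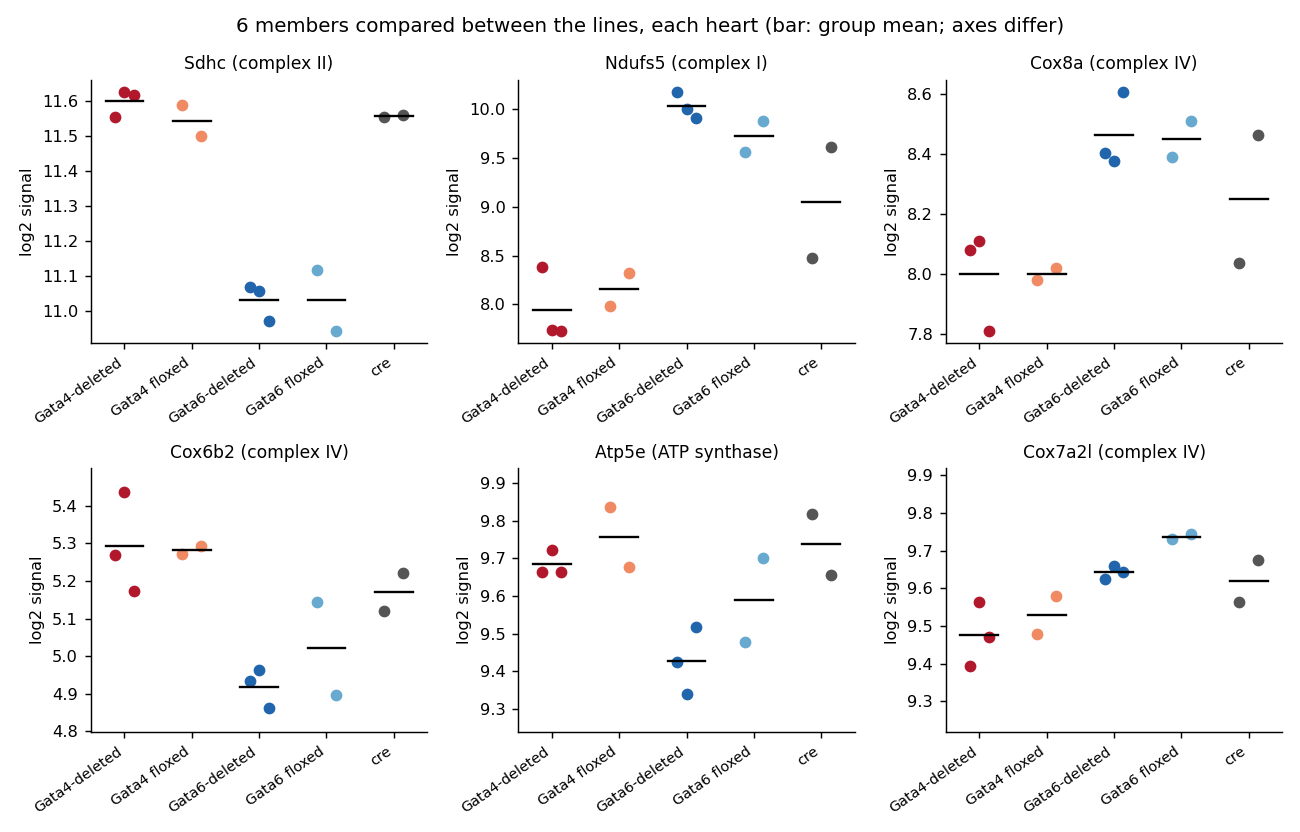
Log2 signal of each heart (points) and group means (bars) for 6 members in the 5 groups. *Sdhc* and *Cox6b2* are higher in hearts of the *Gata4* line and *Ndufs5*, *Cox8a* and *Cox7a2l* lower, with or without cre, and the cre hearts stand apart from each other at *Ndufs5* and *Cox8a*.

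Of the other 10 members at which the lines did not overlap, 5 belong to complex IV. *Cox8a*, the ubiquitous isoform of subunit 8, read 8.08, 8.11 and 7.81 in *Gata4*-deleted hearts, against 8.40, 8.38 and 8.61 in *Gata6*-deleted hearts (-0.46, SE 0.13, adjusted p = 0.154). In the floxed hearts it read 7.98 and 8.02 in the *Gata4* line, against 8.39 and 8.51 in the *Gata6* line (-0.45, SE 0.15, adjusted p = 0.343). The cre hearts read 8.04 and 8.46, again 1 near each line. *Cox6a1*, also ubiquitous, read 8.47, 8.51 and 8.39 in *Gata4*-deleted hearts, against 8.67, 8.71 and 8.85 in *Gata6*-deleted hearts (-0.29, SE 0.08, adjusted p = 0.157). *Cox6b2*, a testis isoform, read 5.27, 5.44 and 5.17 in *Gata4*-deleted hearts, against 4.93, 4.96 and 4.86 in *Gata6*-deleted hearts (0.37, SE 0.09, adjusted p = 0.11). *Cox7a2l*, which belongs to the family by name and helps to join complexes III and IV into supercomplexes, was at -0.17 (SE 0.07, adjusted p = 0.376) between deleted and -0.21 (SE 0.08, adjusted p = 0.429) between floxed hearts. Its other probeset was at -0.08 and -0.05 in these comparisons, and its changes with *Gata4* (0.05) and *Gata6* deletion (0.08) had the opposite sign to those of the chosen probeset (-0.05 and -0.09). *Cox4i2* was at -0.21 (SE 0.08, adjusted p = 0.3) between deleted and -0.05 between floxed hearts. *Atp5e* of ATP synthase is not among these members, since its floxed hearts overlapped between the lines. It read 9.66, 9.72 and 9.66 in *Gata4*-deleted hearts, against 9.42, 9.34 and 9.52 in *Gata6*-deleted hearts (0.26, SE 0.09, adjusted p = 0.27). None of these passed. The muscle isoforms *Cox6a2*, *Cox7a1* and *Cox8b* were within -0.01 and 0.07 between the deleted hearts.

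Between the floxed lines no member passed by limma, where 0.228% of all probesets did. By limma *Sdhc* and *Cox6b2* (higher in the *Gata4* line) and *Ndufs5*, *Cox8a* and *Cox7a2l* (lower) had an unadjusted p under 0.05, as did 10.3% of all probesets. The methods' t-test put 8 members under 0.05 before adjustment, a level that 6.45% of all probesets reached by that test, and none after it. The deleted and floxed hearts are different mice, so the differences between the lines were measured on separate hearts. They had the same sign at 56 of 83 members (67.5%), against 58.6% of all probesets. Pearson's r across the 83 genes was 0.931 and Spearman's rho 0.567, and without *Sdhc* and *Ndufs5* r was 0.698 and rho 0.535 (81 genes). Over all probesets r was 0.403 and rho 0.251. These are descriptions, since genes of 1 heart are not independent.

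**Figure D4:**
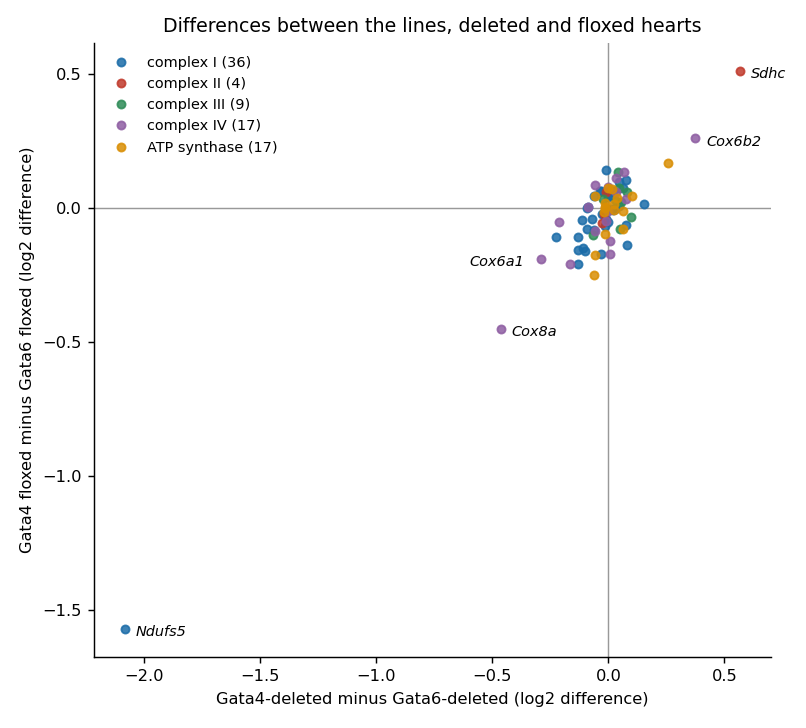
Log2 difference of each member between the lines, in deleted hearts (*Gata4*-deleted minus *Gata6*-deleted, x axis) and in floxed hearts (*Gata4* floxed minus *Gata6* floxed, y axis), colored by complex. *Ndufs5* lies at -2.08 and -1.57 and *Sdhc* at 0.57 and 0.51, and most other members lie close to 0 on both axes.

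Genes next to *Sdhc* and *Ndufs5* were examined in the same comparisons. Of the 10 nearest measured genes on each side in the RefSeq gene order, *Ppox* (-0.44, adjusted p = 0.0286) passed near *Sdhc* between deleted hearts, and *Macf1* (-0.50, adjusted p = 0.00659) and *Fhl3* (-0.79, adjusted p = 0.00413) near *Ndufs5*, which makes 1 of 20 and 2 of 20, where 1.08% of all probesets passed. Over deleted and floxed hearts together the same 3 passed, and *Apoa2* near *Sdhc* as well (-0.67, adjusted p = 0.0118), where 2.07% of all probesets passed. *Ppox* and *Apoa2* lay opposite in direction to *Sdhc*, and *Macf1* and *Fhl3* had the direction of *Ndufs5*. These genes were singled out with their values in view.

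Other mitochondrial genes passed between the deleted hearts as well. *Pdk1*, a kinase that inhibits pyruvate dehydrogenase, was higher in *Gata4*-deleted hearts (0.56, SE 0.08, adjusted p = 0.0127) and *Pdk3* lower (-0.51, SE 0.09, adjusted p = 0.0373), while *Slc25a13*, the aspartate and glutamate carrier, was higher (0.40, SE 0.08, adjusted p = 0.0455) and *Mrpl41* of the mitochondrial ribosome lower (-0.59, SE 0.06, adjusted p = 0.00365). *Pdk1* (0.72, adjusted p = 0.026) and *Mrpl41* (-0.60, adjusted p = 0.0204) also passed between the floxed lines, together with *Idh2* (0.63, adjusted p = 0.0225). *Mrpl41* read 8.99, 9.07 and 8.99 in *Gata4*-deleted hearts and 9.04 and 9.03 in *Gata4* floxed hearts, against 9.53, 9.63 and 9.65 in *Gata6*-deleted hearts and 9.60 and 9.68 in *Gata6* floxed hearts. The lines were apart at this gene whether or not cre was present. No assembly factor or regulator passed in either comparison.

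Cre hearts were set against the mean of the floxed hearts, a comparison of hearts with both genes intact. The cre hearts carry no floxed gene, so the cre transgene and the line cannot be told apart here. No member passed by limma (0.0956% of all probesets did), and 4 were higher and 1 lower at an unadjusted p under 0.05 (8.33% of all probesets). *Sdhc*, 1 of the 4 higher (0.27), averaged 11.56 in cre hearts, against 11.54 in *Gata4* floxed and 11.03 in *Gata6* floxed hearts. The methods' t-test put 9 members under 0.05 before adjustment, a level that 6.22% of all probesets reached by that test, and none after it. Of 83 members 68 lay above 0, against 54.0% of all probesets, and the median log2 difference was 0.05, against 0.01 over all probesets and 0.02 over those above the median signal. Without cre heart 2 53 members lay above 0 and the median was 0.0137, and with each array centred on its 75th percentile 53 lay above 0 as well, with a median of 0.03 against -0.0089 over all probesets.

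All 9 members of complex III were above 0 in cre hearts (0.02 to 0.13), as were 29 of 36 in complex I, 14 of 17 in complex IV and 13 of 17 in ATP synthase. In complex II 3 of 4 lay above 0, and the exception was *Sdhd*, the second membrane anchor of complex II, which read 10.44 and 10.51 in cre hearts, against 10.70 and 10.75 in *Gata4* floxed and 10.74 and 10.75 in *Gata6* floxed hearts. It was lower in both cre hearts than in every floxed heart (-0.26, SE 0.09, adjusted p = 0.461). *Ndufv1*, which binds NADH, read 11.57 and 11.64 in cre hearts, against 11.53 and 11.39 in *Gata4* floxed and 11.45 and 11.34 in *Gata6* floxed hearts (0.18, SE 0.07, adjusted p = 0.562), with no overlap. All 8 cardiomyocyte markers were above 0 in cre hearts (median 0.04). All 4 atrial markers were below 0 (median -0.59), and 3 of them had an unadjusted p under 0.05 (8.33% of all probesets). The 2 red blood cell markers (median -0.38), the 4 fibroblast markers (median -0.25) and the 5 macrophage markers (median -0.15) were also below 0. None of these markers passed, and their part in the members' values was not tested.

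**Figure D5:**
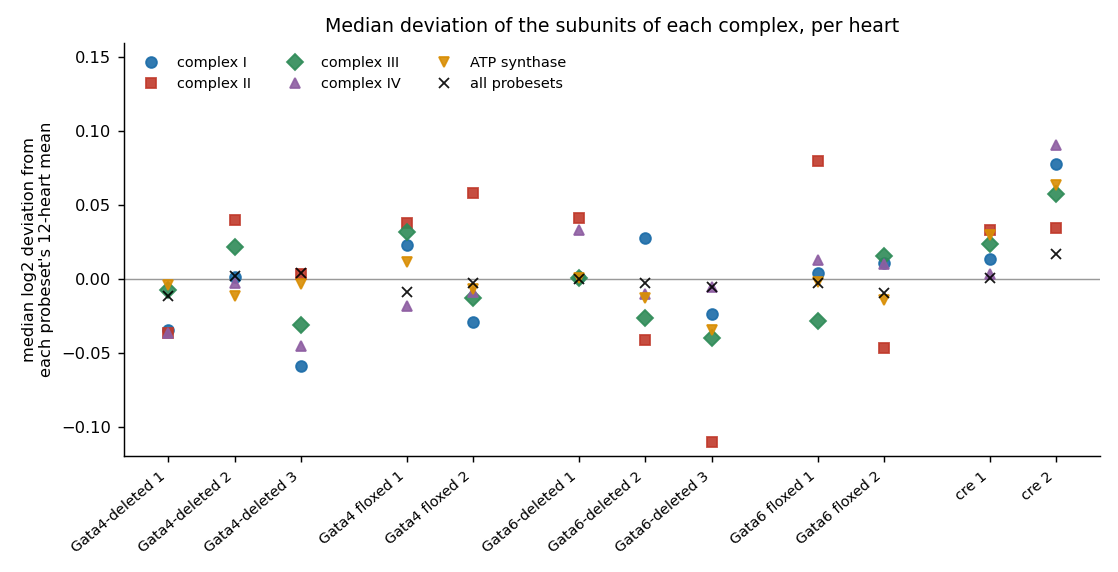
Median log2 deviation of the members of each complex from each probeset's mean over the 12 hearts (y axis), for every heart (x axis), with the median of all probesets as crosses. Both cre hearts and *Gata6*-deleted heart 1 are above 0 for all 5 complexes, the latter by 0.0004 at complex III and ATP synthase. Complex II, with 4 members, varies most.

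Across single hearts, the median of the 83 members deviated from their 12-heart means by -0.02, 0.0002 and -0.03 in *Gata4*-deleted hearts, against 0.02 and -0.01 in *Gata4* floxed hearts. It deviated by 0.0043, -0.0072 and -0.03 in *Gata6*-deleted hearts, against 0.0050 and 0.0093 in *Gata6* floxed hearts. In cre hearts it deviated by 0.02 and 0.07. Cre heart 2 had the widest deviation of the 12 hearts, with 77 of 83 members above their own mean. In that heart 19562 of all 35557 probesets lay above their own mean (median deviation 0.02). So did 11124 of the 17778 probesets above the median signal (median deviation 0.04). Within a group the medians of the members had a pooled SD of 0.0216. The median change of the members was -0.02 with *Gata4* and -0.01 with *Gata6* deletion. The 5 macrophage markers averaged 7.04 to 7.06 in *Gata4*-deleted hearts, against 7.48 to 7.68 in *Gata4* floxed hearts. All 5 log2 changes were below 0 (median -0.53). All 5 had an unadjusted p under 0.05, a level that 9.42% of all probesets reached, and none passed. The 4 atrial markers averaged 8.05 to 8.70 in *Gata4*-deleted hearts, against 8.78 to 8.87 in *Gata4* floxed hearts, without overlap (median -0.49, 1 of 4 at an unadjusted p under 0.05, none passing). The 8 cardiomyocyte markers averaged 12.99 to 13.02 in *Gata4*-deleted hearts, against 13.05 to 13.07 in *Gata4* floxed hearts, also without overlap. Averages of 4 further lists were lower in the same way. These were endothelial (9.22 to 9.28, against 9.34 to 9.41), fibroblast (9.81 to 9.86, against 9.94 to 10.18), red blood cell (6.16 to 6.29, against 6.44 to 7.33) and brown fat markers (5.139 to 5.294, against 5.345 to 5.406). Those of white fat, skeletal muscle and smooth muscle overlapped. No marker of brown fat, white fat or skeletal muscle passed with either deletion. Of the 6 skeletal muscle markers 4 lay above 0 with *Gata4* deletion (highest 0.62) and all 6 with *Gata6* deletion (highest 0.53). In each, 1 of 6 had an unadjusted p under 0.05 by limma (9.42% and 4.91% of all probesets). Between the deleted hearts of both lines 1 of 3 brown fat markers passed, lower in the *Gata4* line (adjusted p = 0.0246 by limma), where 1.08% of all probesets passed. Of the 3 markers 2 lay below 0 and 1 above. Over deleted and floxed hearts together 1 of 3 brown fat markers passed as well, again lower in that line (adjusted p = 0.0406), where 2.07% of all probesets passed. There 1 of the 3 lay below 0 and 2 above. In that comparison 1 of 3 white fat markers also passed, higher in the *Gata4* line (adjusted p = 0.0118), and all 3 lay above 0. The part of these cell types in the members' values was not tested.

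The genes with a pattern most like that of *Cox7a1* over the 12 hearts were *Ssbp1*, a protein that coats single-stranded mitochondrial DNA (Pearson's r = 0.924), *Mfap3l* (0.878), *Prtg* (0.864), A830019P07Rik (0.853) and *Prdx3*, a mitochondrial peroxidase (0.843). They had the highest r of the other genes on the array, over hearts that share groups, and the values are a description.

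Some subunits could not be read alone. Of the members 17 had more than 1 probeset, and the probesets of a gene differed by at most 0.11 in their *Gata4* change and 0.17 in their *Gata6* change. These spreads exceed the median absolute changes of the members (0.047 and 0.034). At *Atp5l*, *Atp5pb*, *Cox7a2l*, *Cox7b*, *Ndufab1* and *Uqcrb* the probesets of the gene had opposite signs with *Gata4* deletion. Another 6 probesets carry the symbol of a subunit next to a second symbol and were left out, so *Cox7c* and *Ndufb4*, listed only in this way, have no value here. Placement by name also puts *Ndufa4*, now counted as a subunit of complex IV, in complex I.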

How the data were processed

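The authors hybridized heart RNA to Affymetrix mouse gene ST arrays, and the deposited values are log2 signals after robust multi-array averaging (RMA), per the labels (its version is not given in the sources used here). RMA makes arrays comparable, so a change shared by all genes would not be seen. The 35557 probesets had values of 1.4 to 14.1, array medians of 5.61 to 5.66 and correlations between arrays of 0.979 to 0.991, and precision is limited by the 2 or 3 arrays a group. The platform annotation lists 23410 probesets, of which 21789 had 1 symbol and 1621 several, and 12147 were not listed. The 83 members had 108 single-symbol probesets. A second table of ratios with 12 columns was not used.

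No value was changed before testing. A model of 5 group means over 12 hearts was fitted with limma 3.58.1 (R 4.3.3), two-sided, with Benjamini-Hochberg adjustment over all probesets (7 residual and 2.5 prior degrees of freedom). Python 3.11.15, pandas 2.3.3 and scipy 1.17.1 were used for counts and the exact test. The fit was tested on simulated data. Alternatives were other scalings, a filter on dim probesets, a replicate block, another prior, fewer groups in the fit, cre hearts as control, means over probesets, each heart left out, other thresholds and the methods' t-test. The line contrast and the bounds of 1.25-fold and 1.5-fold were added after seeing the data. Members and gene lists were chosen with earlier results of these data known. Named genes were members that passed in any comparison, the highest and lowest change of each complex and list in each deletion, isoform pairs, and members with an unadjusted p under 0.01 in a deletion comparison. Further genes were singled out with their values in view. Promoter sequences are those of RefSeq on GRCm38.p6.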

Additional observations from a re-analysis of the deposited data

How the results depend on the processing

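At an adjusted p under 0.05 the absence of member calls with either deletion held under every scaling, filter, prior, choice of groups and left-out heart, with 0 members called. Only cre hearts alone as the control changed it, for *Gata6*. With that control 1 member passed with *Gata6* deletion (*Sdhc*, at -0.52), which was at 0.0020 against *Gata6* floxed hearts. The member medians were then -0.0695 for *Gata4* and -0.0544 for *Gata6* deletion, against -0.0094 and -0.0124 over all probesets. With cre and floxed hearts together as the control they were -0.0458 and -0.0357, against -0.0029 and -0.0065 over all probesets. With cre as the control the sign turned for *Cox7a1* (-0.0334), *Ndufa12* (-0.0444) and *Uqcrh* (-0.0537) in *Gata4*-deleted hearts and for *Atp5o* (-0.0385), *Cox7b2* (0.0099), *Cox8c* (-0.0389), *Sdhb* (-0.0143) and *Uqcrc1* (-0.0845) in *Gata6*-deleted hearts. *Ndufs5* kept its signs at -1.0974 in *Gata4*-deleted and 0.986 in *Gata6*-deleted hearts, against -0.2062 and 0.3085 with floxed hearts as the control. With both controls together the sign turned for *Uqcrh* (-0.0016) and *Uqcrc1* (-0.0308). Over all left-out hearts *Ndufa12* ran from -0.0063 (without *Gata4*-deleted heart 1) to 0.1619 and *Sdhb* from -0.0786 (without *Gata6* floxed heart 2) to 0.1351. The cause was not tested. A lone heart left in a group is assumed to vary like the other groups.

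At an unadjusted p under 0.05 limma counted 1 member with *Gata6* deletion (4.91% of all probesets), 9 between deleted hearts (11.7%), 5 in cre against floxed hearts (8.33%), 5 between floxed lines (10.3%) and 13 between lines (14.8%). The methods' t-test counted 6 with *Gata4* deletion (8.07% of all probesets), 3 with *Gata6* deletion (4.62%), 17 between deleted hearts (10.6%), 9 for cre (6.22%) and 8 between floxed lines (6.45%), and after adjustment 0 in each, so that *Sdhc* (adjusted p = 0.109) and *Ndufs5* (0.149) were not called between deleted hearts. It was not run for the difference of changes or the line contrast. Between floxed lines 1 member, *Sdhc*, passed with 75th percentile centring (adjusted p = 0.0421), the filter on dim probesets (0.0145), the trended and robust prior (0.00836) or an adjusted threshold of 0.1, and 0 to 1 members over left-out hearts (1 without *Gata6* floxed heart 1). Between lines 4 passed with the filter and 5 at the threshold of 0.1, and 2 to 3 over left-out hearts. With 75th percentile centring the median difference of changes was 0.0327 and that of cre against floxed hearts 0.0298. Over left-out hearts the cre median ran from 0.0137 (without cre heart 2) to 0.0665 and the floxed median from -0.0208 to 0.0235. Between deleted hearts both calls held with any heart left out (*Sdhc* 0.5361 to 0.5889, *Ndufs5* -2.2989 to -1.9733).

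Hearts with the same replicate number did not deviate together (r from -0.0971 to 0.109 over 21 pairs). A fit with the replicate number as a block changed no member call, and the member medians were -0.0125 (*Gata4*) and -0.0034 (*Gata6*). Over all probesets the block gave 14 calls against 65 with *Gata4* deletion, 234 against 384 between deleted hearts, 4 against 34 for cre, 35 against 81 between floxed lines, 472 against 736 between lines and 0 against 6 for the difference of changes. Counts over all probesets with *Gata4* deletion ran from 0 (the methods' t-test) to 243 (the filter), with *Gata6* deletion from 0 to 183 (cre as control), between deleted hearts from 0 to 601, for cre from 0 to 67 and between floxed lines from 0 to 201, left-out hearts aside. Over left-out hearts they ran from 10 to 73, 0 to 62, 190 to 408, 4 to 112 and 21 to 383.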
